A study of Mus musculus with 6 samples.

Results

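The 9 genes described here encode the antigen-presenting machinery of major histocompatibility complex (MHC) class II and its main costimulatory ligands: H2-Aa, H2-Ab1, H2-Eb1, Cd74, H2-DMa, H2-DMb1, Ciita, Cd80 and Cd86. They were chosen by symbol, and all 9 were found among the 55809 gene rows of the count tables. They were followed in mast cells sorted from the skin of C57BL6J mouse fetuses of both sexes at embryonic day 18.5, with 3 libraries from prenatally stressed offspring and 3 from control offspring. In the stress group the pregnant dams, 8 to 10 weeks old, were restrained in tubes under bright light 3 times a day for 30 minutes, from embryonic day 13.5 to 18.5 by the design text and from day 13 to 18 by the treatment protocol; control dams were left undisturbed. Every library is the polyadenylated RNA of a pool of 4 mice, 12 per group, from cells that were freed from the skin by enzymes and sorted as CD45+ F4/80- CD64- CD117+ ST2+. The labels call the pools biological replicates but do not say how many dams they came from, so the p-values here speak of variation among pools, which may share a litter.

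MHC class II molecules are pairs of an alpha and a beta chain that display peptides from endocytosed proteins to CD4+ T cells. The invariant chain (Cd74) escorts new pairs to the endosome, H2-DM exchanges its remnant for peptide, and the transactivator CIITA switches the whole set of genes on through factors bound at a conserved promoter module. CD80 and CD86 on the same cell give the T cell its second signal through CD28. Dendritic cells and B cells use this machinery constitutively and macrophages after activation, whereas mast cells are known to acquire it mainly after stimulation.

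The promoters of H2-Aa, H2-Eb1 and H2-DMb1 are shown. They were chosen because the class II chains and CIITA had a common pattern over the libraries, which H2-DMb1 followed less closely. H2-DMa, whose windows are not printed, followed it less still: with Ciita it correlated at 0.13, against 0.37 for H2-DMb1. RefSeq promoter windows were used for 5 of the 9 genes, from 250 bases before to 50 bases after an annotated start, in build GRCm38.p6. A chromosome was left out when these windows were picked, so RefSeq may hold windows for more of the 9 genes. Capitals mark ATTGG, the core of the Y box that binds the factor NF-Y, and ACTGATG, letters within the X box that binds the RFX complex. Both were searched on both strands, and the X box letters were chosen with these windows in view.
H2-Aa, chr17:34287774-34288073, minus strand: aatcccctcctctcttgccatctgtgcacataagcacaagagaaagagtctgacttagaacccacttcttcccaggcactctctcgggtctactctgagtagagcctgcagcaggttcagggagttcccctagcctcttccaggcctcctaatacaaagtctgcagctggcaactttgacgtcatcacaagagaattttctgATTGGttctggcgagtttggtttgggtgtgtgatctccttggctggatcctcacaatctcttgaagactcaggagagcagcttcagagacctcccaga
H2-Eb1, chr17:34305617-34305916, plus strand: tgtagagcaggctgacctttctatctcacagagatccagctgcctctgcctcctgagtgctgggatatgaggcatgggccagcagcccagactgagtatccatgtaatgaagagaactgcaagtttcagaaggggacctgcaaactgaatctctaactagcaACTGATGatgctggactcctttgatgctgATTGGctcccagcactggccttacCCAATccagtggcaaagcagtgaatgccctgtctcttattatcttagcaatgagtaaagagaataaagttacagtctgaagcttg
H2-DMb1, chr17:34152941-34153240, plus strand: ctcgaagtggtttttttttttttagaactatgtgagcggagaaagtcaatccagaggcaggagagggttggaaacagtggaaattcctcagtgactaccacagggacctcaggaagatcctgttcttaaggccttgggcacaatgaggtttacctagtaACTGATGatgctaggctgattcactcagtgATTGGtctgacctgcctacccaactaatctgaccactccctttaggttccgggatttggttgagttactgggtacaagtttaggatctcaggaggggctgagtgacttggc

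The H2-Eb1 window held the X box letters with their first base at -88 and an ATTGG at -59, 29 bases apart, counted from the annotated start, and a further ATTGG on the opposite strand at -35. In the H2-DMb1 window the X box letters began at -91 and ATTGG at -61, 30 bases apart. The H2-Aa window held ATTGG at -48 and no match to the X box letters. The motifs did not overlap each other in these windows. Of 32851 RefSeq promoter windows of the same length, 37.4% held ATTGG, 3.19% held ACTGATG and 1.18% held both. For H2-DMa, RefSeq gives 2 starts: the window chr17:34122582-34122881 held neither motif, and chr17:34125268-34125567 held 1 ATTGG at -198. The Cd80 window held neither. The windows of the other members are not given here.

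The libraries held 51710555 to 74735139 reads counted in genes. Levels are in CPM, read counts per fixed library total, on library sizes scaled with TMM factors, group values are mean ± SD over 3 pools, and log2 fold changes are prenatal stress over control with their standard error (SE). Significance was assessed by quasi-likelihood F tests in edgeR, and the Benjamini-Hochberg adjustment ran over the 16716 genes tested; all 9 members passed the filter on low counts. A gene passed where its adjusted p was below 0.05. Of all genes tested, 6.19% passed, with 4.34% in the higher and 1.85% in the lower direction, and 30.6% had groups that did not overlap. Of the 9 members 1 passed, H2-DMa, which was lower, and 3 had an unadjusted p under 0.05, as did 24.8% of all genes tested. Both counts are near the background. The median log2 fold change was 0.01 over the members and 0.00 over all genes tested.

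**Figure D1:**
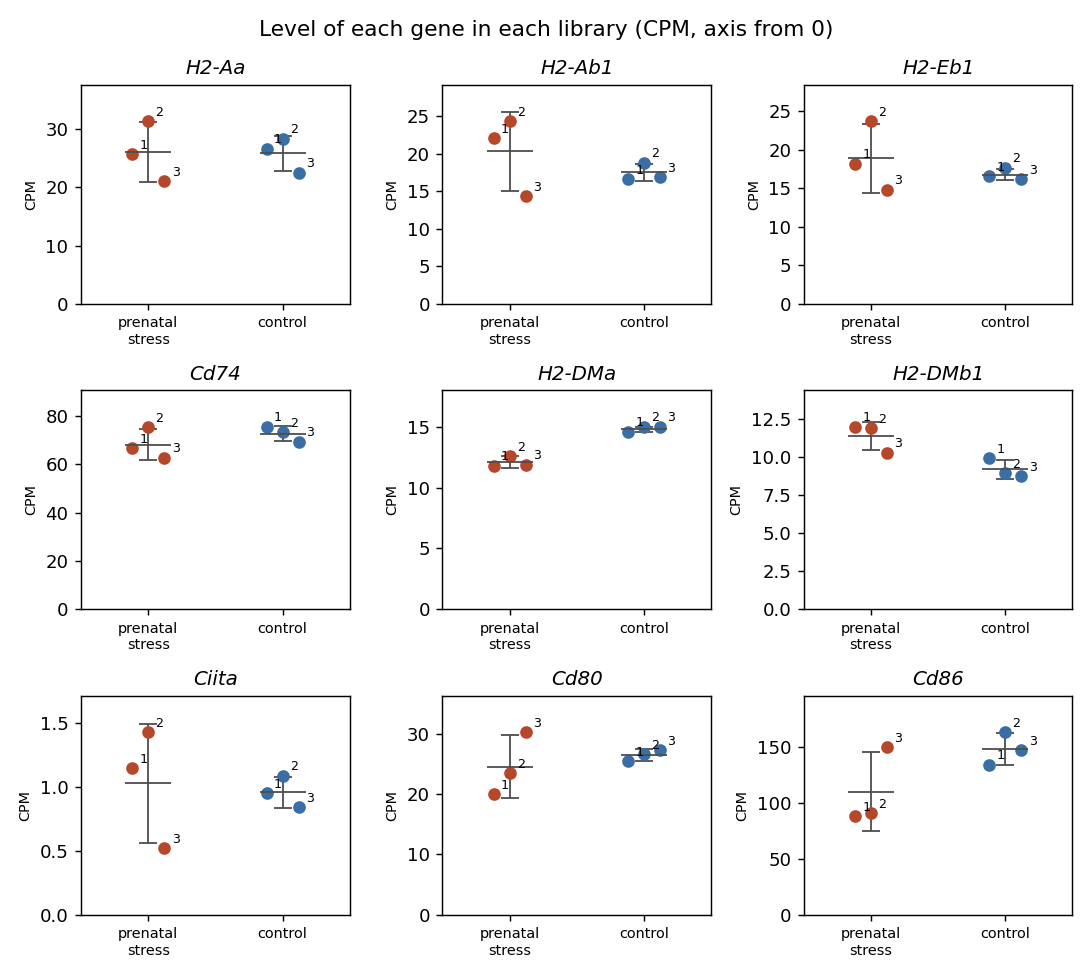
Level of the 9 genes in each library in CPM, on axes that start at 0. Points are libraries, numbered by replicate, and the bar and whiskers are the mean and SD of 3 pools; stress replicate 3 is the lowest of the 6 libraries for H2-Aa, H2-Ab1, H2-Eb1, Cd74 and Ciita and the highest for Cd80.

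The mean levels of the classical class II chains lay at percentiles 57.1 to 63.7 of the genes tested, and their groups overlapped. H2-Aa, the alpha chain of the I-A molecule, had 25.7, 31.3 and 21.0 CPM in stress replicates 1, 2 and 3, against 26.6, 28.3 and 22.5 CPM in control replicates 1, 2 and 3. The 6 values of H2-Aa interleaved, and its log2 fold change was 0.01 (SE 0.14, adjusted p = 0.968). H2-Ab1, the beta chain that pairs with it, was at 22.1, 24.3 and 14.3 CPM in the stress libraries, against 16.6, 18.8 and 16.9 CPM in controls. Stress replicates 1 and 2 lay above every control for H2-Ab1 and stress replicate 3 lay below them. Its log2 fold change was 0.21 (SE 0.17, adjusted p = 0.467), and without stress replicate 3 it was 0.41 and passed (adjusted p = 0.0106). Over all genes 2647 passed in that fit, against 1035 with all libraries. Without stress replicate 2 the value for H2-Ab1 was 0.06 (adjusted p = 0.9). With the mean level of 20 macrophage markers as a covariate it was -0.12 (0.674). H2-Eb1, the beta chain of the I-E molecule, was at 18.2, 23.7 and 14.8 CPM in the stress libraries, against 16.6, 17.7 and 16.2 CPM in controls. As for H2-Ab1, stress replicates 1 and 2 were above the controls and stress replicate 3 below them. For H2-Eb1 the log2 fold change was 0.17 (SE 0.15, adjusted p = 0.52), and 0.31 without stress replicate 3 (adjusted p = 0.0821). It was -0.04 without stress replicate 2 (adjusted p = 0.899) and -0.10 with the macrophage covariate (0.698).

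H2-Ea, which encodes the alpha partner of the I-E beta chain and is known to be defective in C57BL/6 mice, had 0 counts in all 6 libraries. A count of 0 allows up to 3 counts, which is 0.0391 to 0.0595 CPM here and covers counting error only. The libraries therefore held H2-Eb1 transcripts with no counted transcript of the other chain.

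Cd74, the invariant chain, was the most abundant class II gene of the set, with 66.7, 75.3 and 62.7 CPM in stress replicates 1, 2 and 3, against 75.5, 73.3 and 69.3 CPM in controls. Stress replicates 1 and 3 lay below the controls and stress replicate 2 among them (log2 fold change -0.09, SE 0.07, adjusted p = 0.488). The proportion to Cd74 varied less for H2-Aa than for H2-Ab1. H2-Aa counts were 0.335 to 0.416 of Cd74 counts in the stress libraries and 0.325 to 0.385 in controls, both uncorrected for length. The proportion of H2-Ab1 to Cd74 was 0.332 and 0.323 in stress replicates 1 and 2 and 0.229 in stress replicate 3, against 0.22 to 0.257 in controls.

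Ciita, the transactivator, had the fewest counts of the 9 members. It had 58, 77 and 29 counts in stress replicates 1, 2 and 3, against 73, 64 and 48 in control replicates 1, 2 and 3, or 1.15, 1.43 and 0.522 CPM against 0.951, 1.09 and 0.845 CPM. Stress replicates 1 and 2 were the highest libraries and stress replicate 3 the lowest, at a log2 fold change of 0.10 (SE 0.34, adjusted p = 0.885). Its stress libraries spread more widely than its controls, at 1.03 ± 0.465 CPM against 0.962 ± 0.122 CPM.

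Per kilobase of annotated exon, the levels of the 9 genes spanned a wide range. In the stress libraries Cd74 was at 40.6 ± 3.84 and Cd86 at 30.0 ± 9.61 CPM per kilobase, against 43.3 ± 1.88 and 40.4 ± 3.96 in controls. H2-Eb1 followed at 9.72 ± 2.31 in the stress libraries and 8.64 ± 0.396 in controls. H2-Ab1, H2-Aa, H2-DMb1 and Cd80 lay between 6.62 and 7.90 after stress and between 5.48 and 7.13 in controls. H2-DMa was at 3.51 and 4.29 CPM per kilobase in stress and control libraries, and Ciita at 0.108 and 0.101. Neighbours in this order did not differ beyond their SDs for Cd74 and Cd86 in either group. The same held from H2-Eb1 down to Cd80 in the stress libraries, and for Cd80, H2-Ab1 and H2-Aa in controls. The lengths come from GENCODE M21, which may not be the annotation behind the counts.

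The genes of the peptide-loading dimer H2-DM differed in direction, with 1 of the pair passing. H2-DMa, the alpha chain, had 11.8, 12.6 and 11.9 CPM in stress replicates 1, 2 and 3, against 14.6, 15.0 and 15.0 CPM in control replicates 1, 2 and 3. All stress libraries lay below all controls, stress replicate 3 included. H2-DMa fell to 0.816-fold after prenatal stress (log2 fold change -0.29, SE 0.07, adjusted p = 0.043). The fold change stayed between -0.33 and -0.28 when any 1 library was left out, but the call was lost in 5 of those 6 fits, with adjusted p from 0.0865 to 0.153, and held without stress replicate 3 (0.0361). In the annotation 10.4% of the exon length of H2-DMa lies under Brd2 on the opposite strand, and the strand setting of the counting is not given in the sources used here. Brd2, a bromodomain gene, was at 333 ± 24.6 CPM in stress libraries and 336 ± 7.67 CPM in controls (log2 fold change -0.01, adjusted p = 0.927).

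H2-DMb1, the beta chain, was at 12.0, 11.9 and 10.3 CPM in the stress libraries, against 9.94, 8.96 and 8.74 CPM in controls. All stress libraries lay above all controls, but the difference did not pass (log2 fold change 0.31, SE 0.09, adjusted p = 0.0844). It passed with DESeq2 (adjusted p = 0.0465) and without stress replicate 3 (0.0229). Of the 75-base stretches in H2-DMb1 transcripts, 15.8% also occur in H2-DMb2, so reads can be split between the genes or dropped, and the level of H2-DMb1 is uncertain. H2-DMb2, a second beta chain gene, was at 1.92 ± 0.0765 CPM in stress libraries and 2.26 ± 0.326 CPM in controls (adjusted p = 0.399). Within each library the ratio of H2-DMb1 to H2-DMa was 1.02, 0.941 and 0.873 in stress replicates 1, 2 and 3, against 0.682, 0.6 and 0.584 in control replicates 1, 2 and 3. This ratio needs no scaling between libraries, was chosen after the values were seen and was given no test.

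**Figure D2:**
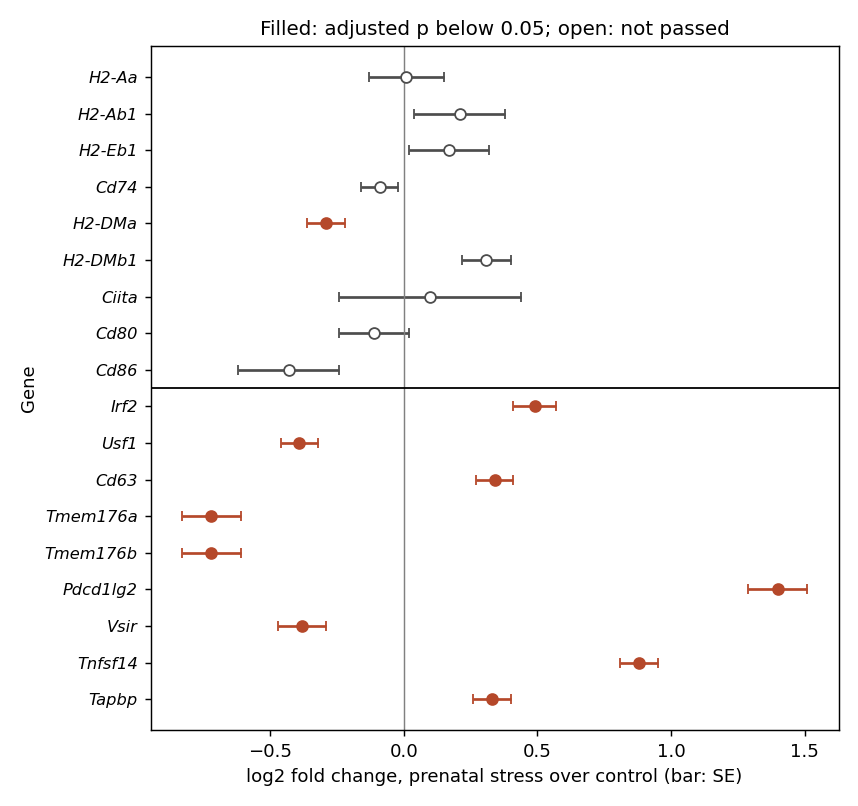
Log2 fold change of prenatal stress over control with its SE for the 9 members, above the line, and for the genes of the wider presentation and costimulation lists that passed, below it. H2-DMa is the 1 member that passed; Pdcd1lg2 at 1.40 and Tnfsf14 at 0.88 have the largest values in the lists.

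The B7 ligands had overlapping groups, with stress replicate 3 apart from the other stress libraries. Cd86 had 88.1, 90.7 and 150 CPM in stress replicates 1, 2 and 3, against 134, 163 and 147 CPM in control replicates 1, 2 and 3. Stress replicates 1 and 2 were far below every control and stress replicate 3 was among them. The log2 fold change of Cd86 was -0.43 (SE 0.19, adjusted p = 0.198). Without stress replicate 3 it was -0.73 and passed (adjusted p = 0.00112). It also passed with no filter on low counts (-0.44, adjusted p = 0.0279). Cd80 was at 20.0, 23.4 and 30.2 CPM in the stress libraries, against 25.4, 26.6 and 27.3 CPM in controls. Stress replicate 3 was the highest library and stress replicates 1 and 2 the lowest (log2 fold change -0.11, SE 0.13, adjusted p = 0.66). Without stress replicate 3 the value for Cd80 was -0.29 and passed (adjusted p = 0.0443).

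Transcripts of macrophages, cells that the sort was set to exclude, were counted in every library and, like Cd86, were low in stress replicates 1 and 2. Of the 20 macrophage markers, all tested and none of them a member, 1 was lower (Cx3cr1, log2 fold change -0.54), 1 was higher (Cd68, 0.37) and 18 did not pass; 17 had a negative log2 fold change, with a median of -0.36. Their summed level was 5660 to 8740 CPM in the stress libraries and 7410 to 8460 CPM in controls, and none was at 0. Of the 20, 10 had an unadjusted p under 0.05, 6 were called by DESeq2 and 3 by limma-voom. Cx3cr1 had 302, 274 and 310 CPM in stress replicates 1, 2 and 3, against 395, 439 and 457 CPM in controls, and its call held in all 15 alternative fits. The Cd68 call held only without stress replicate 2 or 3 among the fits without 1 library, and was lost on library totals (0.25, adjusted p = 0.105). Csf1r, the receptor for macrophage colony-stimulating factor, had 786, 669 and 1140 CPM in stress replicates 1, 2 and 3, against 1110, 1280 and 1250 CPM in controls. The ratio of Cd86 to Csf1r was 0.112, 0.136 and 0.132 in stress replicates 1, 2 and 3, against 0.12, 0.127 and 0.118 in control replicates 1, 2 and 3, so the groups overlapped. For Cd80 the same ratio was 0.0254, 0.035 and 0.0264 in the stress libraries, against 0.0228, 0.0208 and 0.0218 in controls, with all stress libraries above all controls. Cd80 itself was not higher after stress (log2 fold change -0.11), whereas its denominator Csf1r was at -0.49 (adjusted p = 0.122). These ratios were given no test. With the mean log2 level of the macrophage markers as a covariate, the log2 fold change was -0.11 for Cd86 (adjusted p = 0.526) and 0.08 for Cd80 (0.721). In bulk RNA, fewer cells of a type and less RNA per cell cannot be told apart.

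**Figure D3:**
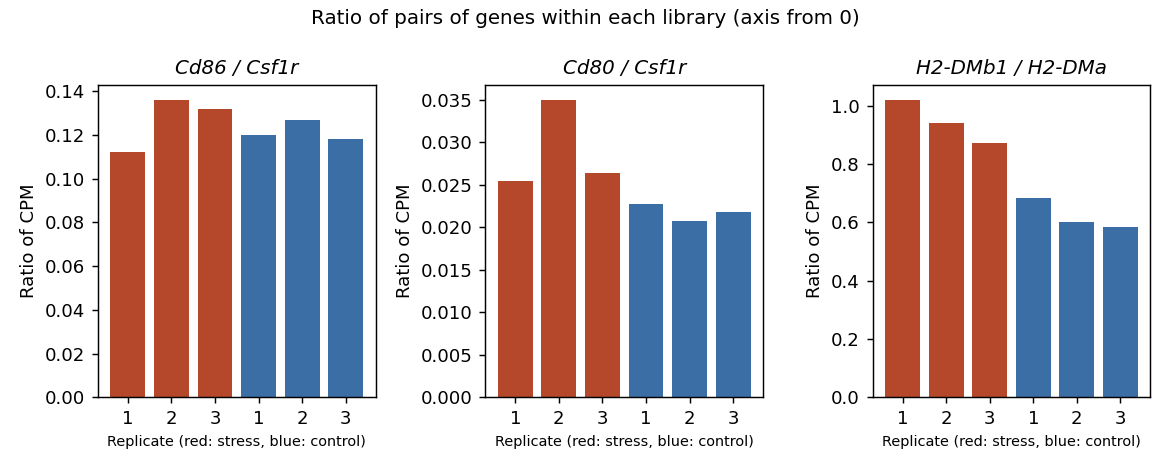
Ratio of CPM within each library for Cd86 to Csf1r, Cd80 to Csf1r and H2-DMb1 to H2-DMa, on axes that start at 0. The Cd86 ratio spans 0.112 to 0.136 with overlapping groups, whereas the stress libraries are above the controls for the other pairs. The ratios were given no test.

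The class II genes ran in another order. The standardised mean of H2-Aa, H2-Ab1, H2-Eb1 and Cd74 was 0.09, 1.38 and -1.33 SD in stress replicates 1, 2 and 3, against 0.06, 0.32 and -0.52 SD in control replicates 1, 2 and 3. The mean log2 level of the macrophage markers was 7.13, 6.98 and 7.61 in the stress libraries, against 7.38, 7.6 and 7.6 in controls. Stress replicate 2 was thus highest in class II genes and lowest in macrophage markers, and stress replicate 3 was lowest in class II genes and at the control level in macrophage markers. As a description over the 6 libraries, which share their scaling and include the group difference, the correlation with the macrophage mean was -0.66, -0.85 and -0.84 for H2-Aa, H2-Ab1 and H2-Eb1. It was -0.33 for Cd74, -0.73 for Ciita, 0.81 for Cd80 and 0.96 for Cd86. For H2-DMa it was 0.49 and for H2-DMb1 -0.88. Ciita correlated with H2-Aa, H2-Ab1 and H2-Eb1 at 0.91, 0.92 and 0.87 over the same libraries. H2-DMa correlated with H2-DMb1 at -0.84. With the macrophage covariate H2-DMa was at -0.31 and no longer passed (adjusted p = 0.078), and H2-DMb1 was at 0.19 (0.298).

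**Figure D4:**
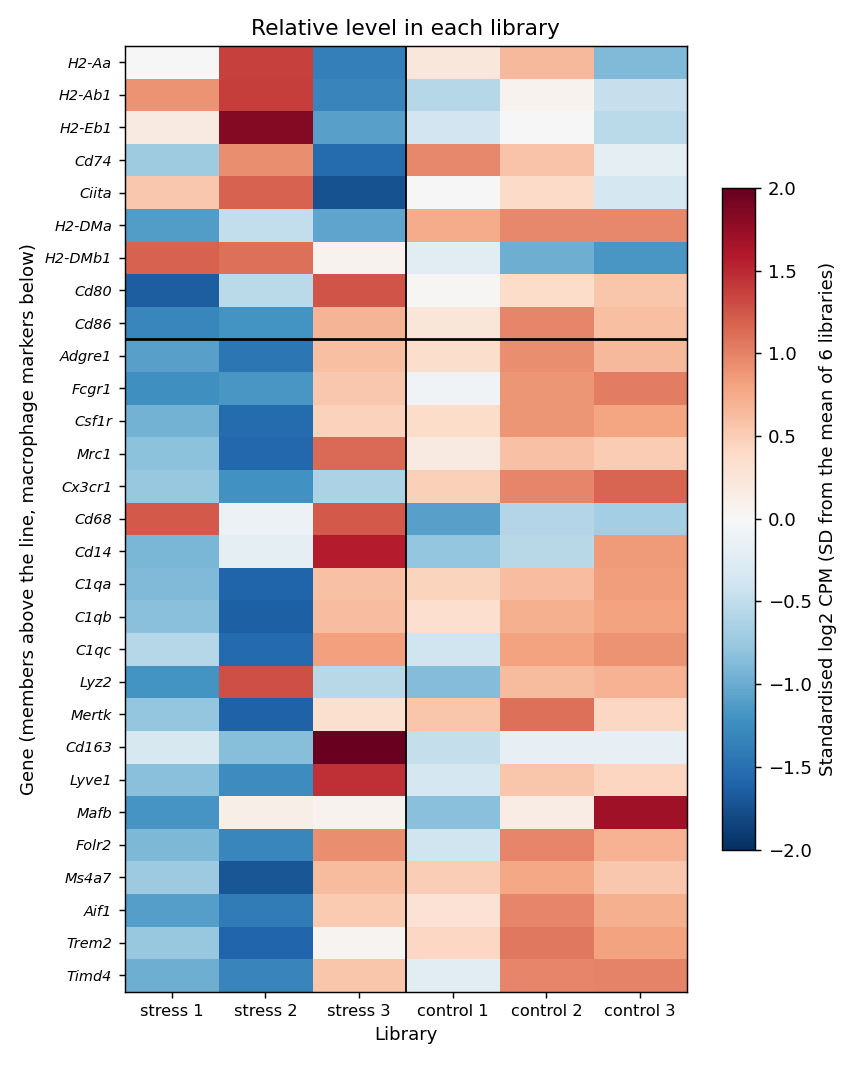
Level of each member (above the line) and each macrophage marker (below it) in the 6 libraries, as log2 CPM standardised over the libraries. Stress replicate 3 is lowest in H2-Aa, H2-Ab1, H2-Eb1, Cd74 and Ciita and highest in Cd80; stress replicate 2 is highest in H2-Aa, H2-Ab1, H2-Eb1 and Ciita and lowest in Csf1r.

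Markers of other cells that carry class II were also counted. For comparison, H2-Aa, H2-Ab1 and H2-Eb1 together summed to 50.1 to 79.4 CPM in the stress libraries and 55.7 to 64.8 CPM in controls. Of 10 dendritic cell markers 9 were tested, and 1 passed: Siglech, a plasmacytoid dendritic cell receptor, fell to 2.28, 2.13 and 3.35 CPM in the stress libraries, against 4.36, 5.61 and 3.96 CPM in controls (log2 fold change -0.84, SE 0.20, adjusted p = 0.0469). Among the 6 fits without 1 library that call held only without stress replicate 3. The Siglech call was also lost with the macrophage covariate (-0.58, adjusted p = 0.117) and with the replicate block (0.0776). The dendritic cell list summed to 58.0 to 86.0 CPM in the stress libraries and 73.4 to 85.1 CPM in controls, with Clec10a, which macrophages also express, as its largest part. Ccr7, the migration receptor of mature dendritic cells, had 2.36, 2.89 and 1.08 CPM in stress replicates 1, 2 and 3, against 2.02, 2.64 and 1.85 CPM in controls, and was named after its values were seen. Its order over the libraries was close to that of Ciita, with stress replicate 3 lowest and stress replicate 2 highest. The other tested markers were divided. Stress replicate 3 was the lowest stress library for Flt3, Itgax and Cd209a, and the highest for Zbtb46, Batf3, Siglech and Clec10a. Clec9a had 11, 6 and 6 counts in stress replicates 1, 2 and 3, so its counts were equal in stress replicates 2 and 3. All 9 tested dendritic cell markers had a negative log2 fold change (median -0.33). Of 7 B cell markers 4 were tested and 0 passed in edgeR, with 1 at an unadjusted p under 0.05, 1 called by DESeq2 and 0 by limma-voom. Cd79b, a chain of the B cell receptor complex, had 9.92, 8.81 and 12.9 CPM in the stress libraries, against 14.1, 14.8 and 16.7 CPM in controls, with no overlap (log2 fold change -0.53, SE 0.14, adjusted p = 0.0559), and passed without stress replicate 3, with DESeq2, on library totals, with no filter or a stricter one, and with the replicate block. Ms4a1, which encodes CD20 and was named after its values were seen, had at most 1 count in a library. Cd207, the Langerhans cell lectin, had 0, 2 and 16 counts in stress replicates 1, 2 and 3, against 5, 12 and 0 in controls. The part of any of these cell types in the member values was not tested.

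The mast cell identity of the libraries was clear from the 15 mast cell markers, which summed to 89300 to 108000 CPM in the stress libraries and 61600 to 74200 CPM in controls. Of them, 9 rose and 0 fell. The largest rises were those of Mrgprb1, Fcer1a and Mrgprb2 (log2 fold change 2.51, 2.26 and 1.30), and their calls held in all 15 alternative fits. The calls of Cpa3 and Cma1, which encode mast cell proteases, held only without stress replicate 3 among the fits without 1 library. Both were lost with the macrophage covariate (adjusted p = 0.0862 and 0.155). Those sums do not overlap, so mast cell transcripts were a larger part of the stress libraries; the part of that difference in the member values was not tested.

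Beyond the members, 68 of 71 counted genes of presentation and costimulation were tested, and 5 rose, 4 fell and 59 did not pass. Their median log2 fold change was -0.03, and 9 of 68 is to be read against 6.19% of all genes. Among the other class II chains and the modulators of H2-DM, 0 of 4 tested genes passed in edgeR, with 0 at an unadjusted p under 0.05 and 0 called by DESeq2 or limma-voom. H2-Oa, the alpha chain of the H2-DM inhibitor H2-O, was at 8.75, 9.13 and 8.19 CPM in the stress libraries, against 10.4, 8.71 and 10.8 CPM in controls (adjusted p = 0.265).

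Of 21 factors that act on class II promoters or on Ciita, 1 rose, 1 fell and 19 did not pass (median -0.07). Irf2, an interferon regulatory factor, rose to 64.0, 67.5 and 57.2 CPM in the stress libraries, against 47.4, 40.4 and 46.1 CPM in controls (log2 fold change 0.49, SE 0.08, adjusted p = 0.0152). Usf1, an E-box factor that binds a Ciita promoter, fell to 22.3, 20.3 and 22.5 CPM in the stress libraries, against 27.6, 28.1 and 29.8 CPM in controls (-0.39, SE 0.07, adjusted p = 0.017). The Irf2 call was lost without control replicate 2 or stress replicate 1 or 2 (adjusted p up to 0.0651), and the Usf1 call without control replicate 2 or 3 or stress replicate 2 (up to 0.0673). Rfx5, the DNA-binding subunit of the RFX complex, was at 23.0 ± 2.29 CPM in stress libraries and 23.4 ± 1.05 CPM in controls (adjusted p = 0.89). Jak1 and Jak2, kinases of the interferon gamma receptor, were the most expressed genes of the list; Jak2 was at 237, 353 and 334 CPM in the stress libraries, against 266, 216 and 226 CPM in controls (log2 fold change 0.38, adjusted p = 0.143). Without stress replicate 1 Jak2 passed (0.53, adjusted p = 0.0418).

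Of 14 genes of endosomal processing and class II turnover, 1 rose, 2 fell and 11 did not pass (median -0.25). The genes that fell were the neighbours Tmem176a and Tmem176b, which encode membrane proteins of endosomal compartments. Tmem176b was at 28.9, 25.6 and 34.4 CPM in the stress libraries, against 44.6, 53.4 and 48.6 CPM in controls, with no overlap (log2 fold change -0.72, SE 0.11, adjusted p = 0.0117). Tmem176a had the same log2 fold change, -0.72 (SE 0.11, adjusted p = 0.0126). Both calls were lost without control replicate 2 (adjusted p = 0.0561 for Tmem176b and 0.0624 for Tmem176a). Cd63, a tetraspanin of late endosomes and mast cell granules, rose to 715 ± 16.7 CPM after stress, against 566 ± 42.0 CPM in controls (0.34, SE 0.07, adjusted p = 0.0285). The Cd63 call held only without stress replicate 3 among the 6 fits without 1 library. It was also lost with the macrophage covariate (0.30, adjusted p = 0.0786) and with the replicate block (0.0706). Ctsb, a cathepsin and the most expressed gene of the list, had 1350, 1170 and 1860 CPM in stress replicates 1, 2 and 3, against 1660, 1900 and 1860 CPM in controls (log2 fold change -0.31, adjusted p = 0.248). Stress replicate 2 was lowest and stress replicate 3 highest within the stress group, as for Csf1r, and without stress replicate 3 Ctsb passed (-0.52, adjusted p = 0.00583).

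Among 16 tested ligands of costimulation and coinhibition, 2 rose, 1 fell and 13 did not pass (median 0.03). Pdcd1lg2, which encodes PD-L2, the second ligand of the inhibitory receptor PD-1, rose to 13.0, 11.0 and 11.3 CPM in stress replicates 1, 2 and 3, against 4.91, 4.10 and 4.35 CPM in control replicates 1, 2 and 3. The groups stood well apart, at a 2.63-fold higher level (log2 fold change 1.40, SE 0.11, adjusted p = 8.07e-04), and the call held in each of the 6 fits without 1 library. Tnfsf14, the ligand LIGHT, rose to 37.6, 41.2 and 39.3 CPM in the stress libraries, against 20.3, 21.6 and 22.4 CPM in controls (0.88, SE 0.07, adjusted p = 7.56e-04), and its call also held in all 6. Vsir, the inhibitory ligand VISTA, fell to 81.4, 76.5 and 95.9 CPM in the stress libraries, against 101, 115 and 114 CPM in controls (-0.38, SE 0.09, adjusted p = 0.0443). Its call held only without stress replicate 3 among those fits, and was lost with the macrophage covariate (-0.22, adjusted p = 0.0747). Lgals9 and Cd83 were the most expressed of the list. Lgals9, galectin 9, was at 486 ± 10.8 CPM in stress libraries and 407 ± 39.7 CPM in controls (adjusted p = 0.0859). Cd83, a maturation marker of dendritic cells, was at 285, 284 and 504 CPM in the stress libraries, against 343, 363 and 396 CPM in controls (log2 fold change -0.04, adjusted p = 0.93). Without stress replicate 3 Cd83 was at -0.37 and passed (adjusted p = 0.00925).

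In the class I pathway, which presents peptides from inside the cell, 1 of 13 genes rose and 12 did not pass (median 0.04). Tapbp, tapasin of the peptide-loading complex, was at 189 CPM in each of the stress libraries, against 144, 143 and 164 CPM in controls (log2 fold change 0.33, SE 0.07, adjusted p = 0.0277), in a call that held without control replicate 3 or stress replicate 3 and was lost without any other library. The chaperone genes Calr and Pdia3 were its most expressed members, and neither passed (adjusted p = 0.857 and 0.417).

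The genes whose level over the 6 libraries was most like that of the class II chains and Cd74 were sought among 9999 other tested genes with a mean of at least 5 CPM. Lilra6, a leukocyte immunoglobulin-like receptor gene, was closest (Pearson r = 0.982), at 7.22, 8.81 and 5.94 CPM in stress replicates 1, 2 and 3, against 7.19, 7.23 and 6.90 CPM in controls. The next were Eif4ebp2, Ddx46, Dr1, Fabp4, Psip1, Lrrcc1 and Zfp995, with r from 0.961 to 0.976. Some of these varied little: Eif4ebp2, a translation repressor, ranged from 199 to 205 CPM. Fabp4, a fatty acid-binding protein, varied more, at 4.76, 8.80 and 3.00 CPM in the stress libraries, against 4.44, 6.31 and 3.65 CPM in controls. The genes most like Cd86 were Nxt2, Casp1, Il6st and Tmem65 (r from 0.996 to 0.998), and those most like Cd80 were G530011O06Rik, Trf, Marchf5 and Tuba1c (r from 0.992 to 0.998). Casp1, the inflammasome protease, was at 23.7, 24.4 and 35.2 CPM in the stress libraries, against 31.0, 36.6 and 33.7 CPM in controls. The correlations rest on 6 libraries that share their scaling, and none of these 16 genes passed the edgeR test between groups with all libraries. Without stress replicate 3, Nxt2, Casp1, Il6st, Tmem65, G530011O06Rik and Tuba1c passed, all lower, and Il6st also passed with no filter.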

How the data were processed

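RNA-seq of sorted fetal skin mast cells was analysed in 6 libraries. For each library the deposited file gives a whole-number read count for every gene symbol, without normalization. HTSeq 0.9.1, STAR 2.4 and FastQC, and the builds GRCm39 and mm10, are named in the submitters' processing notes without a role; which annotation, strand setting and filters applied is not given in the sources used here. The 5 rows that name no gene were left out: per library they held 8.49% to 9.00% of all reads tallied for want of a unique alignment, 7.83% to 9.78% outside any feature and 1.77% to 1.85% as ambiguous. Intervals and floors cover counting error only, since PCR reads are not independent molecules.

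Genes were filtered with filterByExpr (minimum count 10), scaled with TMM and tested with edgeR 4.0.16 (glmQLFit, glmQLFTest, R 4.3.3), stress against control with no covariate, at an adjusted p of 0.05. DESeq2 1.42.0 and limma-voom (limma 3.58.1) were alternatives. Log2 CPM used a prior count of 2. Replicates differed by more than sampling noise (chi-square per degree of freedom 9.81 to 41.4). Exon lengths, overlaps and shared 75-base stretches are from GENCODE M21 (GRCm38). The build behind the counts is open: coordinates are given for RefSeq promoter windows (GRCm38.p6) and not for the counted genes.

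The members and lists were chosen with earlier results of these data known. Named were all members; per pathway list the genes that passed (up to 4) and its 2 most expressed; per marker list up to 3 of each, not all reported; and the 16 genes closest in pattern.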

Additional observations from a re-analysis of the deposited data

How the results depend on the processing

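The number of members that passed was 1 with RLE and upper-quartile factors, library totals, the stricter filter and limma-voom, 2 with no filter (H2-DMa and Cd86) or DESeq2 (H2-DMa and H2-DMb1), and 0 with the macrophage covariate in edgeR (2 at an unadjusted p under 0.05). It was 0 to 5 when 1 library was left out: 0 in edgeR without control replicate 1, 2 or 3 or stress replicate 1 or 2 (2 or 3 at an unadjusted p under 0.05), and 5 without stress replicate 3 (H2-Ab1, H2-DMa, H2-DMb1, Cd80 and Cd86). Over all genes 1035 passed, against 2085 with library totals, 1933 with no filter, 1989 with DESeq2 and 607 with the macrophage covariate. With 1 library left out the number ran from 196 without stress replicate 2 to 2647 without stress replicate 3. Calls gained without stress replicate 3, of members or of other genes, are to be read against that larger number. The cause of these differing numbers was not tested. Library totals moved the median of all genes to -0.119 and the share of higher calls to 26.5%, from 70.0%; H2-DMa was at -0.41 there and H2-DMb1 at 0.19, and H2-Aa and Ciita, not called, changed sign. With the replicate block 622 genes and 0 members passed in edgeR (3 members at an unadjusted p under 0.05; H2-DMa adjusted p = 0.0895). The replicate numbers were not taken as a pairing: deviations of same-numbered libraries correlated at 0.10, -0.02 and 0.07, and not every library correlated best with its own number. Of 1194 values for named genes under the alternatives, 1073 had the same outcome as the main fit. These include genes that passed under neither setting, such as H2-Aa, so the count is not a share of calls kept. A call was lost in 68 values and gained in 53, and 0 changed sign with a call. Sign changes of values that passed under neither setting were not counted. The H2-DMa call held in 8 of 15 alternatives. Among the 9 members Ciita had the fewest counts, 29 to 77, and under the stricter filter it was not tested.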

Other observations

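Markers of further cell types were also read from the fit. Of 6 monocyte genes 1 rose, Chil3, a chitinase-like gene, at 2.48, 4.77 and 1.12 CPM in the stress libraries, against 0.026, 0.102 and 0.299 CPM in controls (log2 fold change 4.36, SE 0.72, adjusted p = 0.0145 in edgeR). The control values rest on 2, 6 and 17 counts, so the size of the change is uncertain. The Chil3 call was lost without control replicate 2 (adjusted p = 0.085). Of 8 tested T cell and innate lymphoid genes 2 rose, 6 had a negative log2 fold change and did not pass, and the median was -0.43. Il7r, the interleukin 7 receptor, was at 54.1 ± 4.79 CPM after stress and 22.0 ± 4.01 CPM in controls (1.30, SE 0.13, adjusted p = 0.00196). Il2rg, the common gamma chain, was at 85.3 ± 5.65 CPM after stress and 68.2 ± 2.86 CPM in controls (0.32, adjusted p = 0.0275). The Il2rg call held only without stress replicate 3 among the fits without 1 library. It was also lost with the macrophage covariate (adjusted p = 0.0743) and on library totals (0.089). The T cell receptor genes Cd3g (log2 fold change -1.80, adjusted p = 0.0841) and Trdc (-2.81, 0.0806) were lower in all stress libraries than in all controls; Cd3g had 1.29, 1.02 and 1.03 CPM in the stress libraries, against 7.54, 2.47 and 1.44 CPM in controls, and Trdc had 3, 14 and 7 counts in the stress libraries, against 174, 34 and 15 in controls. Cd3g passed without control replicate 3, on library totals and with no filter. Trdc was named after its values were seen. Of the tested Langerhans cell (4), keratinocyte (3), fibroblast (6) and endothelial (5) markers, 0 passed in edgeR, with 3, 0, 1 and 0 at an unadjusted p under 0.05, 2, 0, 0 and 0 called by DESeq2, and 0 in each list by limma-voom.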
